A study of Mus musculus with 6 samples.

Results

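The sugar and monocarboxylate transporters described here were all genes of the deposited table whose symbol is Slc2a, Slc5a or Slc16a followed by a number. Within these families the symbol alone decided membership, and 37 of the 34745 genes of the table qualified: 12 of the SLC2 family, 11 of the SLC5 family and 14 of the SLC16 family. The families themselves were chosen with earlier results of these data known, so counts over them are descriptions. The values are RNA-seq read counts from prostate tissue of male C57BL/6 mice in a model of benign prostatic hyperplasia (BPH) with bladder outlet obstruction, and the comparison asks which genes differ in the prostate after hormone treatment. The mice were 6 to 8 weeks old when they entered the study. In the T + E2 group (n = 3), each mouse carried a slow-release pellet of testosterone and estradiol under the skin, renewed monthly, for 12 weeks. In the CON group (n = 3), the skin was cut and closed and no pellet was given. No group received a pellet without hormone or a single hormone, so the effects of testosterone, of estradiol and of the pellet cannot be told apart.

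SLC2 genes encode the GLUT proteins, which let glucose, fructose and related molecules pass the cell membrane down their gradient. SLC5 proteins couple uptake to the sodium gradient and carry sugars, inositol, iodide, choline, vitamins or small monocarboxylates. The SLC16 family holds the proton-coupled carriers of lactate and pyruvate (MCT1 to MCT4), which need a partner glycoprotein to reach the membrane, and also carriers of aromatic amino acids, creatine and other substrates. The glandular epithelium of the prostate is known for secreting fluid rich in citrate, which is made from carbon that sugars and amino acids supply.

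Counts on genes totalled 14816146 to 16555549 per mouse. Values are given below as CPM, the counts per 1000000 counts of the TMM-scaled library, a scale on which a count of 3 is worth 0.183 to 0.208 CPM depending on the mouse. The low-count filter kept 15580 genes, of which 29 were transporters of these families. Markers of luminal epithelium were present in all 6 mice, with Krt8 at 299.6 to 413 CPM and Krt18 at 590.5 to 961 CPM, although the markers moved in different directions: Krt18 (log2 fold change -0.54, adjusted p = 0.00704) and Cd24a (-1.30, adjusted p = 0.000696) fell and Epcam (1.18, adjusted p = 0.000175) rose. The libraries of CON replicate 2 and T + E2 replicate 2 stood apart through seminal vesicle transcripts (6 Svs genes together 9939 and 601 CPM). These genes summed to 0.629 to 3.97 CPM in the other 4 mice. The 2 libraries differed in pattern. In CON replicate 2 the 6 genes were at 15.7 (Svs3a) to 5042 CPM (Svs5). In T + E2 replicate 2 the sum was mostly Svs2 (484 CPM) and Svs5 (110 CPM), with Svs4 at 6.64 CPM and Svs1, Svs3a and Svs6 at 0.183 to 0.244 CPM. In whole tissue, fewer cells of a type and less RNA per cell cannot be told apart.

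Of the 29 tested transporters, 9 were higher and 3 lower in the T + E2 group at an adjusted p under 0.05 in edgeR's quasi-likelihood test, and 17 did not pass. Among all tested genes 10.4% were higher and 9.25% lower by the same rule. Differentially expressed genes (DEGs), which also had an absolute log2 fold change over 1, numbered 6 upregulated and 2 downregulated transporters, while 4.27% of all tested genes were upregulated and 3.38% downregulated DEGs. The 3 T + E2 mice were all above the 3 CON mice for 12 tested transporters and all below them for 9, and these shares were 20% and 20.7% over all tested genes. The counts of higher transporters and of upregulated DEGs include Slc2a5, which passed the low-count filter only through its T + E2 counts. The median log2 fold change was 0.12 over the 29 transporters and -0.0021 over all tested genes. By family it was 0.31 for SLC2, -0.25 for SLC5 and 0.12 for SLC16.

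**Figure D1:**
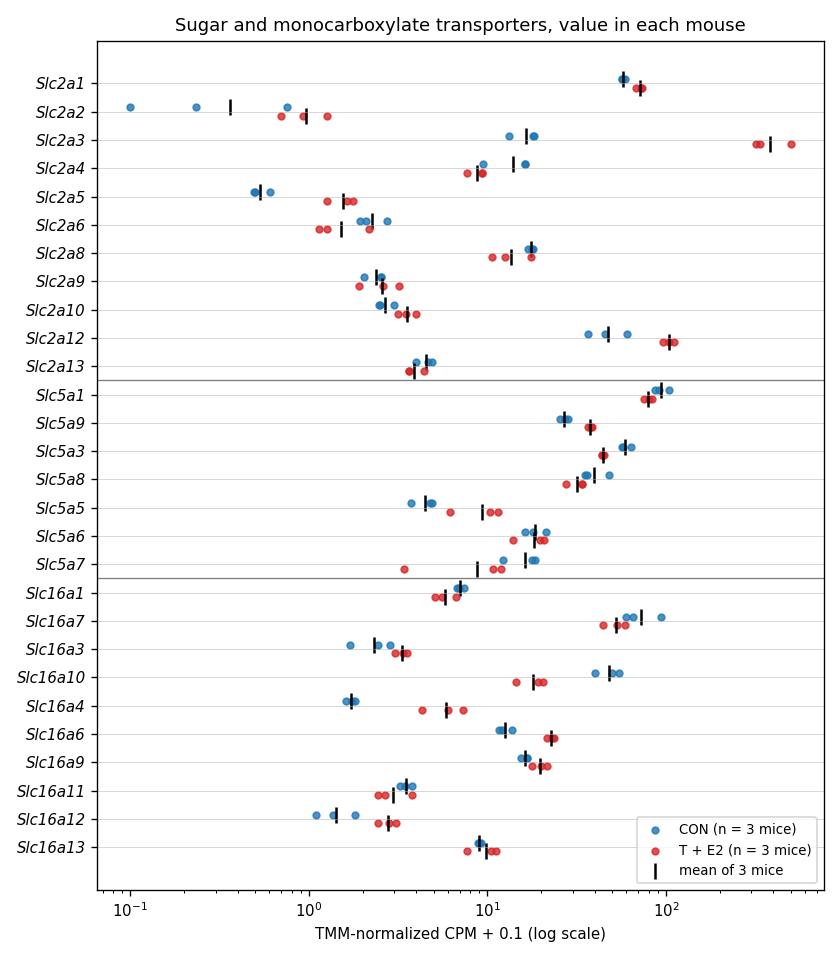
Value of 28 tested transporters in each mouse, as TMM-normalized CPM plus 0.1 on a log axis, with CON mice in blue, T + E2 mice in red and black ticks at the mean of 3 mice. The widest gap is that of Slc2a3, at 13.1 to 18.1 CPM in CON mice and 318 to 500.4 CPM in T + E2 mice.

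The hexose carrier Slc2a3 showed the largest difference of the 3 families. Slc2a3 (ENSMUSG00000003153, chr6:122727809-122801640, minus strand, GRCm38) encodes GLUT3, a glucose carrier of high affinity that is best known from neurons. It had 18.1, 17.9 and 13.1 CPM in CON mice and 500.4, 335 and 318 CPM in T + E2 mice. Every T + E2 mouse was far above every CON mouse, and within the T + E2 group the highest mouse had 1.57 times the level of the lowest. The means were 16.4 ± 2.87 and 384 ± 101 CPM (SD, n = 3), with a log2 fold change of 4.55 (SE 0.23), or 23.5-fold, with an adjusted p of 1.84e-05. By size of rise Slc2a3 stood at place 63 of the 15580 tested genes. Its share of the summed SLC2 level, counted as CPM per kilobase of merged exons, was 4.61 to 6.21% in CON mice and 43.0 to 56.6% in T + E2 mice.

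Sequence that Slc2a3 shares with other genes was sought among annotated transcripts, at 90% identity over at least 100 bases. The rest of the genome was not searched, and the part of shared reads in the Slc2a3 values was not tested. A single annotated Slc2a3 transcript holds 208 bases (3.33% of its length) that are at least 90% identical to transcripts of 609 other genes, and no annotated exon of another gene overlaps those of Slc2a3. Markers of other cells that could carry this gene were set beside it. Leukocyte markers (Ptprc, Cd68, Adgre1, Cd3e and Cd79a) summed to 28.3 to 47.7 CPM in the CON group and 36.8 to 58.0 CPM in the T + E2 group, and none of the 5 passed the test. None of the 4 endothelial markers passed either. For both lists the count was also 0 at an unadjusted p under 0.05 in edgeR and at an adjusted p under 0.05 in DESeq2 and limma. Of all 15580 tested genes, 5372 had an unadjusted p under 0.05 in edgeR, and 10.4% were higher and 9.25% lower at an adjusted p under 0.05. The glial gene Sox10 was at 8.74 to 12.9 CPM in the CON group and 2.49 to 4.004 CPM in the T + E2 group, and fell (log2 fold change -1.66, adjusted p = 0.00259). Urothelial markers summed to 422 to 642 CPM in CON mice and 1700, 1578 and 1374 CPM in T + E2 mice, and all 3 that were tested rose. Globin transcripts of red cells were at 41.9 to 51.9 CPM in the CON group and at 105, 362 and 112 CPM in the T + E2 group, with 4 of 4 higher. With 3 mice per group, a marker that did not pass may still differ. The part of leukocytes, endothelium, glia, urothelium or blood in the Slc2a3 difference was not tested.

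Slc2a12 and Slc2a5 were the other upregulated DEGs among the hexose carriers. Slc2a12 (ENSMUSG00000037490, chr10:22645011-22704285, plus strand) encodes GLUT12, a glucose carrier first described in breast cancer cells. Its values were 45.5, 60.5 and 36.4 CPM in the CON group and 96.1, 103 and 111 CPM in the T + E2 group, so the groups did not overlap. The means were 47.5 ± 12.2 and 104 ± 7.45 CPM, which gave a log2 fold change of 1.12 (SE 0.18) with an adjusted p of 0.00366. Slc2a12 shares 407 exon bases with Tbpl1 on the opposite strand, which itself had a log2 fold change of -0.21 (adjusted p = 0.188). Slc2a5 (ENSMUSG00000028976, chr4:150119283-150144169, plus strand) encodes GLUT5, the fructose carrier. It was scarce, with 6, 6 and 8 counts (0.397, 0.394 and 0.503 CPM) in CON mice and 24, 19 and 23 counts (1.66, 1.16 and 1.53 CPM) in T + E2 mice. All T + E2 mice were above all CON mice, and the log2 fold change was 1.72 (SE 0.32) with an adjusted p of 0.00846. The CON counts were all under the minimum count of 10 of the low-count filter. Slc2a5 was therefore tested only through its T + E2 counts, and its call is a description. Without CON replicate 2 and T + E2 replicate 2 together, the adjusted p of Slc2a5 was 0.0569.

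Slc2a1 passed the test with a small difference, and the remaining 7 tested SLC2 genes did not pass. Slc2a1 (GLUT1), the carrier of basal glucose uptake in most tissues, had 59.0, 56.6 and 56.8 CPM in CON mice and 72.4, 68.3 and 73.2 CPM in T + E2 mice. Replicates were close to each other and the groups did not overlap, with a log2 fold change of 0.31 (SE 0.082) and an adjusted p of 0.0331. That call was lost in 11 of 15 alternative settings, among them those without CON replicate 1 (adjusted p = 0.0629), CON replicate 2 (0.118), CON replicate 3 (0.0962), T + E2 replicate 1 (0.11) or T + E2 replicate 3 (0.0695). Slc2a4 (GLUT4), the insulin-regulated carrier of muscle and fat, had 9.40, 16.1 and 16.2 CPM in CON mice and 9.27, 7.55 and 9.21 CPM in T + E2 mice. These groups did not overlap by a narrow margin, and the log2 fold change of -0.68 had an adjusted p of 0.0682, or 0.01 without CON replicate 1. CON replicate 1, the lowest CON mouse for Slc2a4, also had the lowest CON sums of the 6 adipocyte markers (64.4 CPM, against 347 and 88.3) and of the 8 skeletal muscle markers (76.1 CPM, against 334 and 175). The T + E2 mice had adipocyte sums of 99.3, 76.7 and 44.0 CPM and skeletal muscle sums of 122, 97.1 and 279 CPM, and the part of these tissues in the Slc2a4 values was not tested.

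Among the other hexose carriers, Slc2a2 (GLUT2, of liver and pancreatic islet cells) was near the detection limit, with 2, 10 and 0 counts in CON mice and 12, 19 and 9 counts in T + E2 mice. Its adjusted p was 0.177, and 0.033 without CON replicate 2. Slc2a8 (GLUT8, of intracellular membranes) had a mean of 17.4 CPM in the CON group and 13.5 CPM in the T + E2 group, with an adjusted p of 0.201, or 0.0277 without T + E2 replicate 3. Slc2a6, Slc2a9 (the urate carrier GLUT9), Slc2a10 and Slc2a13 (the proton-coupled inositol carrier HMIT) had means of 1.42 to 4.41 CPM, log2 fold changes from -0.59 to 0.43 and adjusted p-values of 0.198 to 0.797. Slc2a7 had no count in any mouse, which allows up to 0.208 CPM; it lies 4802 bases from Slc2a5.

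**Figure D2:**
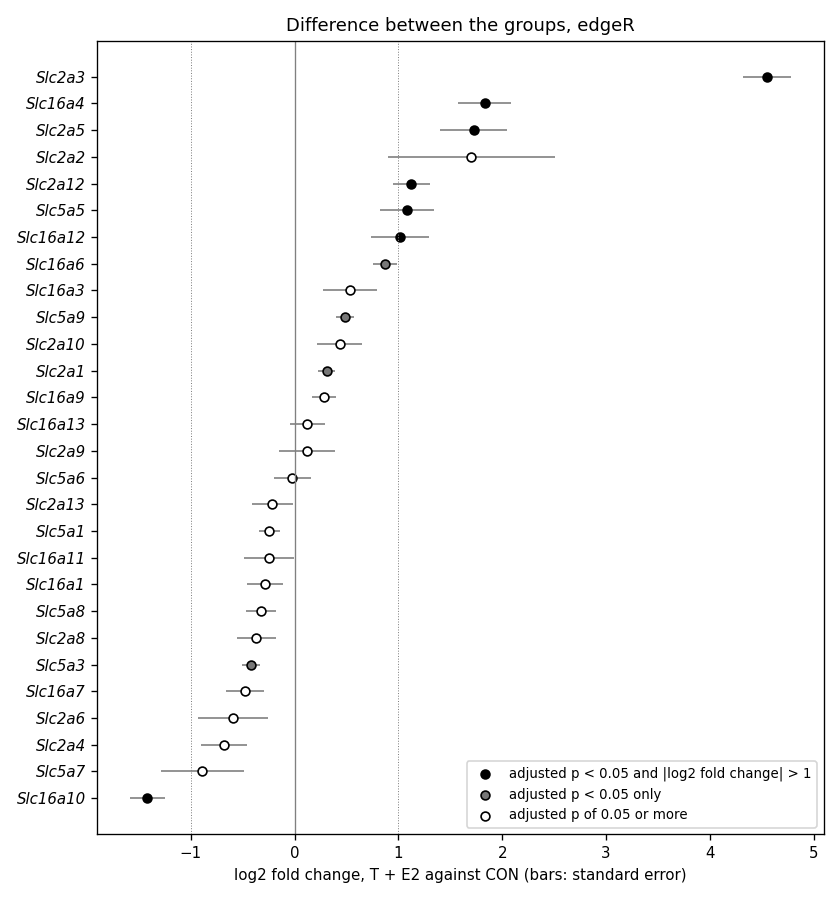
Log2 fold change (T + E2 against CON) of 28 tested transporters by edgeR, with bars of 1 standard error, ordered by size. Filled black points are DEGs, grey points passed the adjusted p only and open points did not pass; Slc2a3 lies at 4.55, far from the next gene at 1.83.

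The sodium-coupled sugar carriers differed little. Slc5a1 encodes SGLT1, the glucose and galactose carrier of the gut lining. Its values were 91.7, 86.7 and 104 CPM in CON mice and 83.2, 75.0 and 80.2 CPM in T + E2 mice, which lay just below them. The log2 fold change was -0.25 (SE 0.10) with an adjusted p of 0.128. Slc5a9 (SGLT4, a carrier of mannose, fructose and other sugars) had 27.2, 28.3 and 25.3 CPM in CON mice and 37.8, 36.6 and 38.6 CPM in T + E2 mice. The groups were well apart and Slc5a9 rose, with a log2 fold change of 0.49 (SE 0.088) and an adjusted p of 0.00733. Slc5a2 (SGLT2, of the kidney) had no count in any mouse, and Slc5a10 had 2 counts in CON replicate 3 alone.

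The inositol carrier Slc5a3 (SMIT1), which cells use to take up inositol as an osmolyte, fell. It had 56.4, 57.0 and 63.7 CPM in CON mice and 43.7, 45.1 and 43.6 CPM in T + E2 mice. The T + E2 values lay close together below all CON values, and the log2 fold change was -0.42 (SE 0.088) with an adjusted p of 0.0138. The adjusted p was 0.0558 without T + E2 replicate 1 and 0.0744 without CON replicate 2 and T + E2 replicate 2. Slc5a3 shares 159 exon bases, 1.46% of its transcript of 10913 bases, on the same strand with Mrps6, so reads there could belong to either gene. Mrps6, a mitochondrial ribosome gene, had a log2 fold change of -1.04 (adjusted p = 0.000481). Slc5a11 (SMIT2) had 0 to 2 counts in each mouse. The monocarboxylate carrier Slc5a8 (SMCT1), which takes up lactate and short-chain fatty acids with sodium, had means of 39.7 and 31.6 CPM in the CON and T + E2 groups and an adjusted p of 0.154, and the related Slc5a12 had no count.

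Slc5a5 was the DEG of the SLC5 family. Slc5a5 (ENSMUSG00000000792) encodes the sodium-iodide symporter NIS, which concentrates iodide in the thyroid. Its values were 3.64, 4.80 and 4.65 CPM in CON mice and 10.2, 6.09 and 11.4 CPM in T + E2 mice. T + E2 replicate 2 was the closest to the CON group, and the groups did not overlap. The means were 4.36 ± 0.629 and 9.25 ± 2.80 CPM, with a log2 fold change of 1.08 (SE 0.26) and an adjusted p of 0.0238. The call was lost in 5 of 15 alternative settings, among them those without CON replicate 1 (adjusted p = 0.067), CON replicate 3 (0.0626), T + E2 replicate 1 (0.0685) or T + E2 replicate 3 (0.0702).

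The choline and vitamin carriers of the SLC5 family did not pass. Slc5a7 encodes CHT1, the choline transporter of cholinergic nerve endings, and had 17.7, 18.3 and 12.2 CPM in CON mice and 3.32, 11.9 and 10.7 CPM in T + E2 mice. T + E2 replicate 1 was far below the other two T + E2 mice, and this mouse also had the lowest level of the glial gene Sox10 (2.49 CPM). The log2 fold change of -0.89 (SE 0.40) had an adjusted p of 0.158, and the part of nerve content in it was not tested. Slc5a6 (SMVT, the carrier of biotin and pantothenate) had means of 18.4 and 18.1 CPM and an adjusted p of 0.939. Its value is uncertain, since its longest stretch at least 90% identical to a transcript of another gene was 1897 bases and it shares 396 exon bases with Atraid on the opposite strand.

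Slc16a10 was a downregulated DEG of the SLC16 family. Slc16a10 (ENSMUSG00000019838, chr10:40033535-40142254, minus strand) encodes TAT1, a carrier of aromatic amino acids that also moves thyroid hormone. Its values were 54.4, 40.0 and 49.9 CPM in the CON group and 20.4, 14.4 and 19.2 CPM in the T + E2 group. Each T + E2 mouse was below each CON mouse, and the log2 fold change was -1.42 (SE 0.17) with an adjusted p of 0.000999. Over the 15 alternative settings its log2 fold change lay between -1.54 and -1.22, and it passed in each.

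Slc16a4, Slc16a12 and Slc16a6 rose. Slc16a4 (ENSMUSG00000027896, chr3:107291230-107312115, plus strand) encodes MCT5, whose substrate is not well established. It had 1.52, 1.71 and 1.63 CPM in CON mice and 5.95, 7.18 and 4.20 CPM in T + E2 mice. The CON mice were close together and all T + E2 mice above them, with a log2 fold change of 1.83 (SE 0.26) and an adjusted p of 0.00237. Slc16a12 (ENSMUSG00000009378), which encodes the creatine carrier MCT12, had 15, 26 and 20 counts (0.993, 1.71 and 1.26 CPM) in CON mice and 39, 49 and 35 counts (2.70, 2.98 and 2.34 CPM) in T + E2 mice. The groups did not overlap, and the log2 fold change was 1.01 (SE 0.28), just past the DEG limit, with an adjusted p of 0.0392. The call was lost in 9 of 15 alternative settings, including DESeq2 (adjusted p = 0.0765) and those without CON replicate 1 (0.097), CON replicate 3 (0.113), T + E2 replicate 1 (0.0937), T + E2 replicate 2 (0.116) or T + E2 replicate 3 (0.0584). Slc16a6 encodes MCT7, a carrier of ketone bodies, and had 11.5, 13.7 and 12.0 CPM in CON mice and 23.6, 21.5 and 22.8 CPM in T + E2 mice. It rose by a log2 fold change of 0.87 (SE 0.11), with an adjusted p of 0.00175. Slc16a6 shares 1052 exon bases with Amz2 and 48 with Arsg on the opposite strand, whose log2 fold changes were -0.10 (adjusted p = 0.409) and 0.84 (adjusted p = 0.013).

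None of the 3 tested lactate and pyruvate carriers passed in edgeR, and 1 passed in DESeq2 and 0 in limma. In edgeR 1 of the 3 had an unadjusted p under 0.05, as did 5372 of all 15580 tested genes. Slc16a1 (MCT1) had means of 6.94 and 5.69 CPM in the CON and T + E2 groups, with an adjusted p of 0.279. Slc16a7 (MCT2) had 93.6, 59.6 and 65.3 CPM in CON mice and 58.9, 53.2 and 44.3 CPM in T + E2 mice. CON replicate 1 stood above the others, the groups were separated by less than 1 CPM, and the log2 fold change of -0.48 (SE 0.18) had an adjusted p of 0.104 in edgeR and 0.0481 in DESeq2. Slc16a3 (MCT4, the lactate exporter of glycolytic cells) had means of 2.23 and 3.22 CPM and an adjusted p of 0.192. The retinal carrier Slc16a8 (MCT3) had no count in CON mice and 1, 1 and 2 counts in T + E2 mice, which is at or under the limit of 3 counts.

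The remaining SLC16 genes were described by their levels. Slc16a9, a carnitine carrier, had means of 16.2 and 19.7 CPM and an adjusted p of 0.124. Slc16a11 and Slc16a13, which lie 371 bases apart on chromosome 11, had log2 fold changes of -0.25 and 0.12 and adjusted p-values of 0.501 and 0.651. The filter removed Slc16a14, with 2, 0 and 0 counts in CON mice and 3, 9 and 3 in T + E2 mice, and Slc16a5, with 0 to 2 counts in each mouse. With these, Slc16a8, Slc2a7, Slc5a2, Slc5a10, Slc5a11 and Slc5a12, 8 of the 37 genes were not tested.

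Promoter sequence is shown for the DEGs that passed in each alternative setting and have an entry in the RefSeq promoter table of GRCm38.p6, so that the upregulated Slc2a12 and Slc16a4 can be read beside the downregulated Slc16a10. Slc2a3 has no entry there. Each line gives the 250 bases before the RefSeq transcript start, 5′ to 3′ on the strand of the gene, at chr10:22644761-22645010 (plus strand) for Slc2a12, chr3:107290980-107291229 (plus strand) for Slc16a4 and chr10:40142255-40142504 (minus strand) for Slc16a10. Capitals mark matches on either strand to TGTTCT (an androgen receptor half-site), AGGTCA (a nuclear receptor half-site), TATAAA (the core of the TATA box), CCAAT (bound by NF-Y), GGGCGG (a GC box, bound by Sp1) and ACGTG (the core of the hypoxia response element).
Slc2a12: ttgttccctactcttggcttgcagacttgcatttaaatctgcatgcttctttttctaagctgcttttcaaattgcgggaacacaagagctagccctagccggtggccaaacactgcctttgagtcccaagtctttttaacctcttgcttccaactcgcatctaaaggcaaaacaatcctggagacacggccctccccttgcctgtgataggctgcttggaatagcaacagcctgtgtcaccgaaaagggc
Slc16a4: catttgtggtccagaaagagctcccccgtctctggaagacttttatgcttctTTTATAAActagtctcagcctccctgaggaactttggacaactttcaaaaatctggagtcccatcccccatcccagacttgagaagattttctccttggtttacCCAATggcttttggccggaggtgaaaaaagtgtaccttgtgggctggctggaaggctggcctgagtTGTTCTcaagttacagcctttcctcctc
Slc16a10: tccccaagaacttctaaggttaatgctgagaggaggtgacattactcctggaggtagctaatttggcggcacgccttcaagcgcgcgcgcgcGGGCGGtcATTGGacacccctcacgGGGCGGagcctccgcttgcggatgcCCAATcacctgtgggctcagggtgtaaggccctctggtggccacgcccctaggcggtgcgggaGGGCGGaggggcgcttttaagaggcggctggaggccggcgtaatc

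The Slc2a12 window held none of the 6 motifs. The Slc16a4 window held TGTTCT at 28 to 23 bases before the start, CCAAT at 94 to 90, and a TATAAA match on each strand that overlap between 198 and 191. In the Slc16a10 window, GGGCGG occurred 3 times and CCAAT once on each strand. Of the 37 transporter genes, 27 have an entry in the table, with 29 promoters in all. TGTTCT was found in 5 of these 29 promoters and in 16.1% of the 32851 promoters of the table, and AGGTCA in 4 and in 14.0%. GGGCGG was found in 14 and in 32.7%, CCAAT in 11 and in 33.8%, ACGTG in 5 and in 16.6%, and TATAAA in 2 and in 12.4%. A match is a description of the letters and not a site of binding.

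Levels can be compared between genes only per exon length. As CPM per kilobase of merged exons, the CON prostate was led by Slc5a1 (22.9 ± 2.20, SD, n = 3), Slc2a1 (16.4 ± 0.374) and Slc2a12 (11.2 ± 2.87), whose SDs did not overlap. In the T + E2 group the order was Slc2a3 (53.1 ± 13.9), Slc2a12 (24.4 ± 1.76), Slc2a1 (20.3 ± 0.759) and Slc5a1 (19.4 ± 1.01), the last pair within their SDs. Slc2a3 was at 2.26 ± 0.396 on this scale in the CON group. SLC2 summed to 39.1 to 46.0 CPM per kilobase in CON mice and 98.3 to 122 in T + E2 mice, SLC5 to 47.8 to 51.2 and 43.5 to 48.0, and SLC16 to 34.2 to 38.9 and 28.1 to 30.3. The deposited FPKM values rest on other gene lengths, which for Slc16a7 are 4686 bases against 11839 of merged exons. Its mean FPKM in the CON group was 15.7, second to that of Slc5a1 (23.2) among these transporters. The deposited locus of Slc16a7 (chr10:125226464-125328963) is also shorter than its M21 span (chr10:125219270-125389465), so the merged exons may include bases that were not counted. Its 6.15 ± 1.54 CPM per kilobase in the CON group, its place in the order and the SLC16 sums therefore depend on the length used. The order of the other genes depends on it too. By mean FPKM, Slc2a1 and Slc2a12 were at 11.1 and 10.6 in the CON group. In the T + E2 group Slc5a1 (19.1) was above Slc2a1 (13.5) on that scale.

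**Figure D3:**
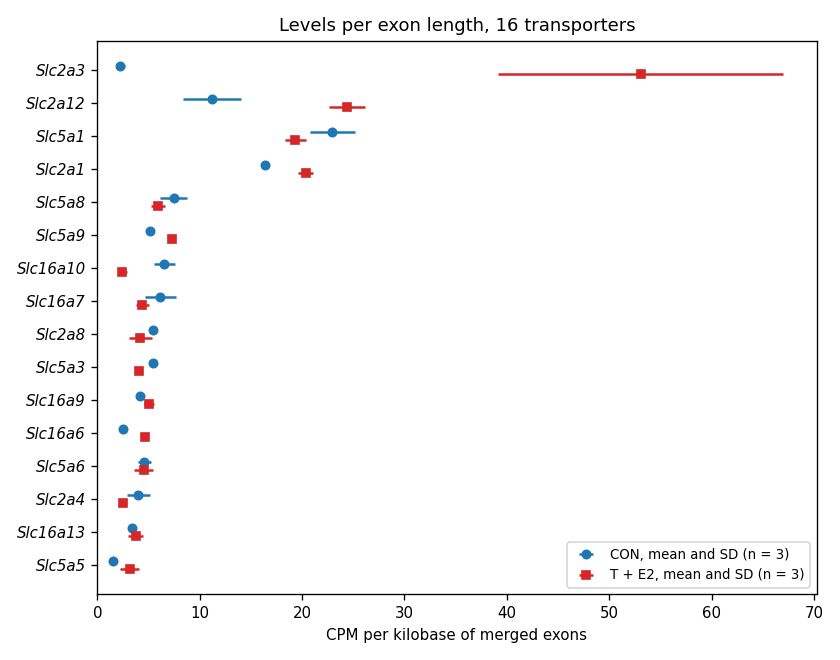
Mean level per length (CPM per kilobase of merged exons) of 16 transporters that are high on this scale, with bars of 1 SD over 3 mice, CON as blue circles and T + E2 as red squares. Slc2a3 lies at 2.26 in the CON group and at 53.1 in the T + E2 group, above the other transporters.

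Partner proteins of the lactate carriers and enzymes of the carried substrates were followed as lists. All lists were chosen with earlier results of these data known, so their counts are descriptions. The shares to set beside every list count, here and below, are those over all tested genes in edgeR, 10.4% higher and 9.25% lower. Basigin (Bsg), the partner of MCT1, MCT3 and MCT4, had 332, 407 and 414 CPM in CON mice and 1502, 1397 and 1129 CPM in T + E2 mice. The groups were far apart and Bsg rose by a log2 fold change of 1.80 (SE 0.14), with an adjusted p of 0.00016. Embigin (Emb), the partner of MCT2, had means of 28.3 and 20.8 CPM and an adjusted p of 0.142. None of the 6 tested sugar kinases, hexokinases among them, passed in edgeR, and 1 passed in DESeq2 and 0 in limma. In edgeR 2 of the 6 had an unadjusted p under 0.05, as did 5372 of all 15580 tested genes. Of 7 tested lactate dehydrogenases and pyruvate dehydrogenase kinases, Ldhd (a D-lactate dehydrogenase) rose (log2 fold change 0.77, adjusted p = 0.00393) and Pdk2 fell (-0.82, adjusted p = 0.00406).

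In the polyol pathway, which turns glucose into sorbitol and then fructose, both enzymes of the pathway itself fell. Aldose reductase (Akr1b3) had 263, 250.2 and 297 CPM in CON mice and 92.4, 84.8 and 73.9 CPM in T + E2 mice, a log2 fold change of -1.69 (adjusted p = 6.94e-05). Sorbitol dehydrogenase (Sord) had 222, 146 and 193 CPM in CON mice and 99.7, 72.9 and 66.1 CPM in T + E2 mice, a log2 fold change of -1.23 (adjusted p = 0.004). The groups did not overlap for either gene. Of the other 3 genes of that list, Akr1b8 rose by 0.59 (adjusted p = 0.0364) and 2 did not pass. For inositol, the synthase Isyna1, which makes it from glucose 6-phosphate, had means of 28.7 and 122 CPM and rose, at a log2 fold change of 2.09 (adjusted p = 3.06e-05), while the other 3 tested genes of the list did not pass.

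Among genes that handle thyroid hormone, which TAT1 also moves, all 7 tested genes passed in edgeR, 3 higher and 4 lower. All 7 also passed in DESeq2, and 6 passed in each limma fit. Of all 15580 tested genes, 1620 were higher and 1441 lower in edgeR, and 1716 and 1508 in DESeq2. Of 17340 genes in limma, 1404 were higher and 1517 lower on log2(FPKM + 1), and 1394 and 1440 on log2(FPKM + 0.1). This list, like the others, was chosen with earlier results of these data known, so its count is a description. Dio2, the deiodinase that makes the active hormone, had 2.78, 3.42 and 2.07 CPM in CON mice and 16.2, 15.2 and 9.48 CPM in T + E2 mice, a log2 fold change of 2.30 (adjusted p = 0.00103). Crym, a cytosolic protein that binds the hormone, had 3.64, 4.53 and 5.53 CPM in CON mice and 0.761, 0.487 and 0.667 CPM in T + E2 mice, a log2 fold change of -2.83 (adjusted p = 0.000566). Both genes were fully separated between the groups. Slc7a5, which encodes the amino acid exchanger LAT1, fell, with means of 285 and 109 CPM and a log2 fold change of -1.39 (adjusted p = 0.000609). The other 4, named after their values were seen, were Dio3 (an inactivating deiodinase, 1.10), the receptors Thrb (0.56) and Thra (-0.41), and Slc7a8 (LAT2, -0.52).

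**Figure D4:**
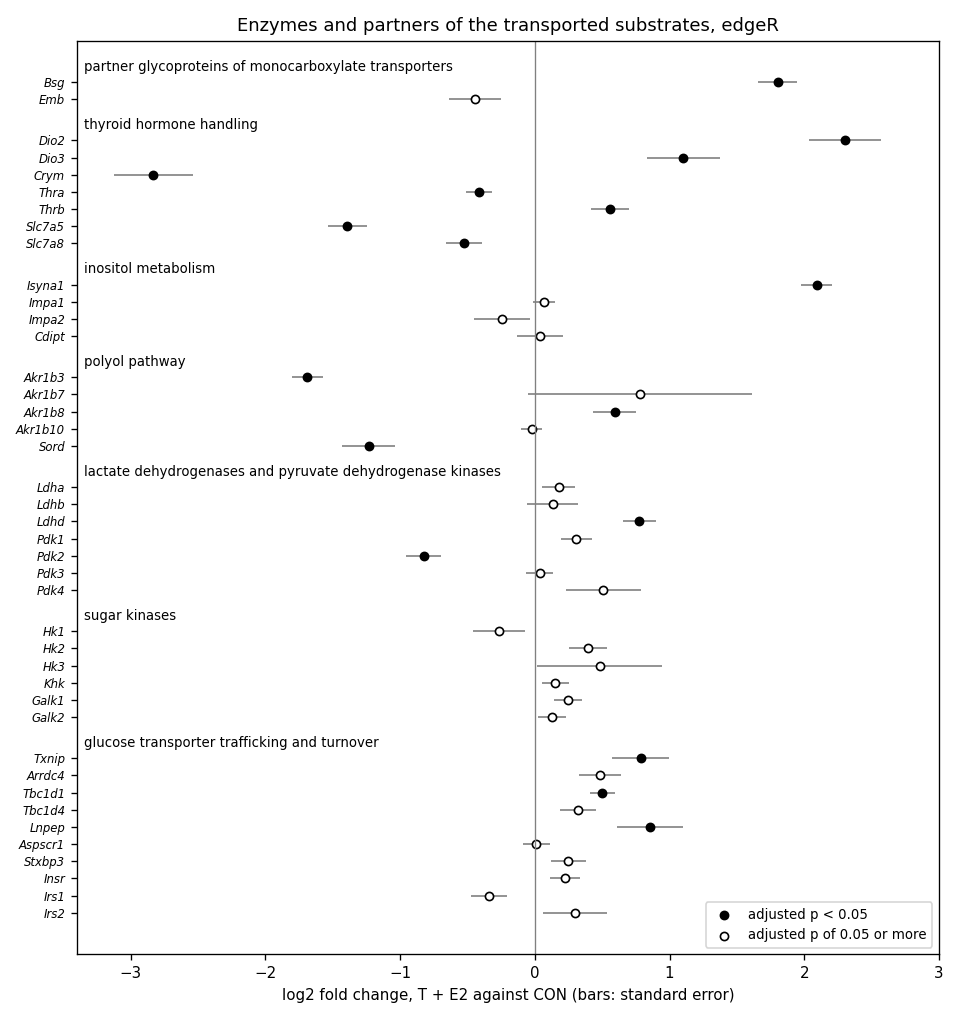
Log2 fold change (T + E2 against CON) by edgeR for tested enzymes, partners and regulators of the transported substrates, grouped by list, with bars of 1 standard error. Filled points passed an adjusted p under 0.05, and among the filled points Dio2 (2.30), Isyna1 (2.09) and Bsg (1.80) lie furthest to the right and Crym (-2.83) and Akr1b3 (-1.69) furthest to the left.

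Of 10 genes for trafficking and turnover of glucose carriers, 3 were higher and 7 did not pass in edgeR, while 4 passed in DESeq2 and 1 in each limma fit. Over all tested genes, 10.4% were higher and 9.25% lower in edgeR, and lists this short cannot be told from those shares by their counts. Lnpep (the aminopeptidase of GLUT4 vesicles) rose (log2 fold change 0.86, adjusted p = 0.0435), as did Txnip (an arrestin that removes glucose carriers from the membrane, at 0.79, adjusted p = 0.0349) and Tbc1d1 (a regulator of GLUT4 vesicles, at 0.50, adjusted p = 0.00811). Of 10 other tested sugar and pyruvate carriers, Slc37a1 rose by 0.53 (adjusted p = 0.00998) and the prostate marker Slc45a3 by 0.52 (adjusted p = 0.00976). Of 7 genes of creatine handling, the synthesis enzyme Gamt fell by 1.13 (adjusted p = 0.0177) and creatine kinase Ckb by 0.54 (adjusted p = 0.00492). The median log2 fold changes of these lists were 0.31 for trafficking, 0.13 for other carriers and -0.51 for creatine handling, beside -0.0021 over all tested genes. The creatine median is the value of Slc6a8 (adjusted p = 0.193), which had 42.6, 89.1 and 54.8 CPM in CON mice. Of that list 5 genes did not pass, among them the skeletal muscle marker Ckm, and the part of muscle content was not tested.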

How the data were processed

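Per the labels, total RNA of 6 prostates was sequenced as paired-end TruSeq libraries. The authors deposited 1 table of 34745 genes with raw counts per mouse and FPKM values computed from them. The submitters' processing notes name TopHat, Bowtie2 and HTSeq. Their versions, the genome build, the annotation and whether strand was used are not given in the sources used here. Of the identifiers, 34267 occur in GENCODE M21 (GRCm38) and 80.83% of these have the same start and end, so coordinates are given on GRCm38.

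Counts were analysed with edgeR 4.0.16 in R 4.3.3 (filterByExpr with minimum count 10 and minimum total 15, TMM scaling, quasi-likelihood test, Benjamini-Hochberg adjustment over 15580 genes). The standard error of a log2 fold change was taken from the F statistic (its size over the square root of F). Passing means an adjusted p under 0.05. Group means, SDs and per-mouse values are TMM-normalized CPM, with gene lengths from merged GENCODE M21 exons where given per kilobase. The mice of a group are separate animals, and no libraries within a group were duplicates (chi-square per degree of freedom 16.7 to 36.4). The fit across all genes was used because 3 against 3 mice cannot reach a two-sided exact permutation p below 0.1. Limits from counts cover counting error only, since reads carried no molecular identifiers.

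Alternatives were RLE scaling, library totals, no low-count filter, a filter at 1 CPM in 3 mice, DESeq2 1.42.0, limma 3.58.1 on log2(FPKM + 1) and log2(FPKM + 0.1), a replicate block and each mouse left out. Similar transcripts were sought with BLAST 2.17.0+ at 90% identity over at least 100 bases. Figures used matplotlib 3.10.9 in Python 3.11.15. Members and lists were chosen with earlier results of these data known. Members are named, DEGs with full values, and of each list up to 3 passing genes with the largest log2 fold change, besides Bsg and Emb. Some genes are not reported here, though counts and family sums include them.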

Additional observations from a re-analysis of the deposited data

How the results depend on the processing

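Over the 15 alternatives, Slc2a3, Slc2a12, Slc16a4, Slc16a6, Slc5a9 and Slc16a10 passed in the same direction each time, with log2 fold changes of 3.80 to 4.71 for Slc2a3. The number of transporters passing was 9 higher and 3 lower, 6 to 9 higher and 2 to 4 lower when 1 mouse was left out, and 8 higher and 5 lower in DESeq2, which added Slc2a4 and Slc16a7 among the lower ones. Upregulated DEGs numbered 6, fell to 2 in limma on log2(FPKM + 1), where the pseudocount shrinks low genes (Slc2a5 to 0.29, Slc16a4 to 0.71 and Slc16a12 to 0.31), and ranged from 3 (without CON replicate 3) to 7 when 1 mouse was left out. Downregulated DEGs stayed at 2 in all alternatives. Directions turned for 2 genes that never passed, Slc2a9 (-0.078 without T + E2 replicate 1, up to 0.30 with another mouse left out) and Slc5a6 (0.086 without CON replicate 2, 0.14 without T + E2 replicate 2, and 0.25 without both, down to -0.13 with another mouse left out); the cause was not tested. Leaving out CON replicate 2 and T + E2 replicate 2 together, chosen after seeing the data, left 6 higher and 2 lower, without Slc2a1, Slc2a5, Slc5a3 and Slc16a12. Same-numbered mice are different animals, and their deviations from the group means over all tested genes had correlations of -0.052, 0.028 and 0.046. Such correlations cannot show a deviation confined to few genes, and replicate 2 of both groups stood apart in Svs transcripts. The replicate block left 6 transporters higher and 3 lower, with 4 and 2 DEGs, and Slc5a5 at an adjusted p of 0.0552. Over all genes, 1620 genes passed as higher and 1441 as lower, against 1229 and 945 with the block, 1095 to 1474 and 834 to 1267 with 1 mouse left out, and 822 and 532 without the 2 libraries named, which left 511 upregulated and 298 downregulated DEGs. The limma fit on log2(FPKM + 1) gave 365 upregulated and 196 downregulated DEGs, against 665 and 526. With library totals the median log2 fold change of all genes was -0.040, and 1421 genes were higher and 1594 lower. Genes with under 3 counts in a mouse are below what this depth can compare.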
